A study of Mus musculus with 9 samples.

Results

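The genes of antigen presentation by the major histocompatibility complex (MHC) were examined in RNA-seq libraries of mouse tibia. Of the 18272 genes in the deposited table, 50 were taken: 36 whose symbol begins with H2-, the name of the mouse MHC, and 14 chosen by name (Cd74, Ciita, B2m, Tap1, Tap2, Tapbp, Tapbpl, Nlrc5, Rfx5, Erap1, Calr, Pdia3, Ifi30 and Ctss). They comprised 34 class I genes, 15 class II genes and H2-Ke6, which carries the prefix but encodes a hydroxysteroid dehydrogenase. All mice were female C57BL/6J, bought at 10 to 11 weeks of age, with 3 tibiae per group and 1 library per tibia. The NGT mice (normal glucose tolerance) were injected with citrate vehicle and labelled as saline treated. The T1D mice were made diabetic with streptozotocin, a toxin of the pancreatic β cells, and then given saline. The Lira mice were made diabetic in the same way and then given liraglutide, a GLP-1 receptor agonist, at 0.6 mg/kg per day for 8 weeks, while Lira mouse 3 is labelled with 9 weeks. This model destroys β cells chemically rather than through an autoimmune attack. The comparisons asked how the tibia of untreated diabetic mice differed from that of normal mice, and how liraglutide-treated diabetic mice differed from untreated ones.

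MHC class I molecules sit on nearly all nucleated cells and show peptides from the cytosol to CD8 T cells. Each consists of a heavy chain and β2-microglobulin, and its peptides are pumped into the endoplasmic reticulum by the Tap1/Tap2 transporter and loaded with the help of chaperones. MHC class II molecules are made mainly by dendritic cells, macrophages and B cells and show peptides from endosomes to CD4 T cells. In bone, marrow-resident cells of these lineages are the best known class II carriers.

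The libraries held between 13086373 and 16528394 counts. Genes reaching 10 counts in 3 or more libraries were tested, which left 13960, among them 24 of the 34 class I genes, 13 of the 15 class II genes and H2-Ke6. Although the bones were described as cleaned of muscle, 8 skeletal muscle genes together made up 78978 to 215094 CPM (counts scaled to library size) of each library, whereas 10 osteoblast and osteocyte genes made up 206 to 5573 CPM. The libraries T1D mouse 1 and Lira mouse 3 stood apart from the rest. T1D mouse 1 was the highest of the 9 libraries for 20.7% of all tested genes and Lira mouse 3 for 19.9%. In bulk tissue, fewer cells of a type and less RNA per cell cannot be told apart, so all levels below are levels of the whole tibia sample. Nothing in the labels ties the mice of a group to one another, and the p-values measure the spread between these 3 tibiae per group.

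The class I genes were highest in T1D mouse 1. In that library 22 of the 24 tested class I genes had their highest level, and the remaining 2, H2-T24 and H2-T-ps, had it in Lira mouse 3. All class I genes together took up 0.557% of the counts in T1D mouse 1 and between 0.0620% and 0.160% in the other 8 libraries. The level in T1D mouse 1 was a median of 3.97 times the median of the other 8 libraries over the class I genes, against 0.999 times over all tested genes. More than 2-fold above every other library stood 13 class I genes in T1D mouse 1, a position held by 3.41% of all tested genes. Over 4 times the median of the other 8 libraries stood 12 class I genes in T1D mouse 1, against 4.52% of all tested genes.

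The classical heavy chains and their light chain were among these genes. H2-K1 (gene 14972), the heavy chain H-2K, was at 146, 66.1 and 60.2 CPM in NGT mice 1, 2 and 3, at 687, 98.8 and 105 CPM in the T1D mice and at 82.7, 89.3 and 176 CPM in the Lira mice. H2-D1 (gene 14964), the heavy chain H-2D, was at 194, 81.0 and 80.4 CPM in the NGT mice, at 843, 119 and 131 CPM in the T1D mice and at 120.5, 113 and 237 CPM in the Lira mice. For both chains NGT mouse 1 lay above T1D mice 2 and 3, so the groups overlapped. B2m (gene 12010), the light chain, was at 253, 129 and 109.6 CPM in the NGT mice, at 1458, 142 and 139.6 CPM in the T1D mice and at 159.8, 166 and 267 CPM in the Lira mice. T1D mouse 1 exceeded the next highest library 5.47-fold for B2m, 3.90-fold for H2-K1 and 3.56-fold for H2-D1. The ratio of H2-D1 to H2-K1 counts stayed between 1.21 and 1.46 in all 9 mice, so the chains kept their proportion in the high library. On the length-corrected FPKM scale, the median over the 9 libraries was 175 for B2m, 68.4 for H2-D1 and 55.8 for H2-K1. H2-K1 and H2-D1 shared 9.63% and 10.9% of their 50-base transcript windows with other members, and B2m shared 0%.

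**Figure D1:**
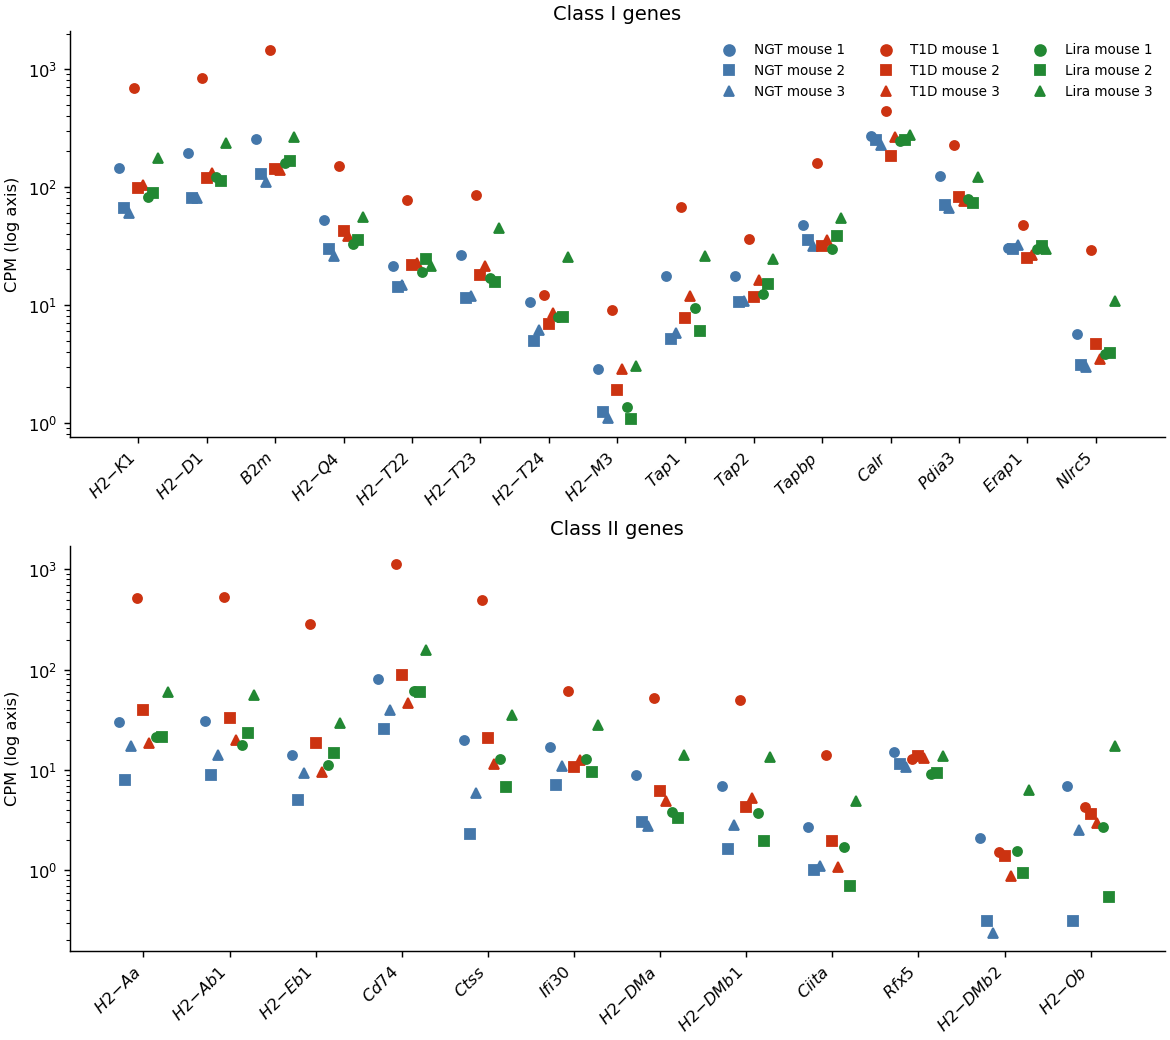
Level of named class I genes (top) and class II genes (bottom) in each of the 9 libraries, in CPM on a log axis; colour gives the group and the symbol shape the mouse number. T1D mouse 1 (red circle) is the highest point for most genes, for example 1458 CPM for B2m and 1133 CPM for Cd74, while Lira mouse 3 (green triangle) is the highest point for H2-T24, H2-DMb2 and H2-Ob.

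The promoter windows of the chain that binds peptide and of its partner are shown because their levels went together across mice. Each covers the 250 bases before the annotated start (RefSeq, GRCm38.p6), that of H2-K1 at chr17:34000348-34000597 (reverse strand) and that of B2m at chr2:122147437-122147686 (forward strand). Capitals mark matches, on either strand, to ATTGG (the Y box core), TGACG (the core of the cAMP response element), an NF-κB site (GGGA, 4 free bases and CC) and an interferon-stimulated response element (GAAA, 2 free bases and GAAA). The NF-κB matches on opposite strands overlap.
H2-K1: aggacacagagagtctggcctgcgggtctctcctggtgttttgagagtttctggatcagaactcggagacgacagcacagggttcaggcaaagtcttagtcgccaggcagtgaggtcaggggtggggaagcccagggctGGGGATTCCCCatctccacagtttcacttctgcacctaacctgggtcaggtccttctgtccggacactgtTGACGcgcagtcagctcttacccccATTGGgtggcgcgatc
B2m: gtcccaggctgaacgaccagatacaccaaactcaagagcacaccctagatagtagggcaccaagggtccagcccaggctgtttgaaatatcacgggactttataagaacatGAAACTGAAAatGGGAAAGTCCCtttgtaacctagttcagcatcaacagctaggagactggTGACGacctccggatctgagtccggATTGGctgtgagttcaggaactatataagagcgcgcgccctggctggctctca
The Y box core began 16 bases before the start of H2-K1 and 53 bases before that of B2m, at -16 and -53. It lay in the windows of 20 of 24 class I genes with a sequence and in 37.4% of the 32817 promoter windows of the table, which extend 50 bases further. The NF-κB site was found in 11 of the 24 and in 20.7% of all windows, TGACG in 11 and in 20.8%, and the interferon-stimulated element in 4 (B2m, Erap1, H2-T22 and H2-T23) and in 3.43%. A match is a description of the sequence only. The fixed strings can miss variants of an element, so an unmatched window is not shown to lack it.

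Among the nonclassical chains, H2-T22 was the one class I gene whose 3 T1D mice all lay above the 3 NGT mice in CPM, an order found for 3.52% of all tested genes. No member of either class had its 3 T1D mice all below the NGT mice, which held for 5.08% of all tested genes. H2-T22 (gene 15039) encodes a ligand of γδ T cells. Its level was 21.5, 14.3 and 14.8 CPM in the NGT mice, 77.9, 21.9 and 22.8 CPM in the T1D mice and 19.1, 24.7 and 21.2 CPM in the Lira mice. T1D mouse 2 exceeded NGT mouse 1 only narrowly, and on the FPKM scale, at 13.05 and 15.4, it lay below it and the groups overlapped. The exact two-sided permutation p was 0.1, the smallest that 3 against 3 mice can give. Any such separation gives this value, so it adds nothing to the order itself. H2-T22 shared 31.2% of its transcript windows with its near copy H2-T10, and reads could have been divided between them. Their summed level was 25.9, 15.4 and 16.1 CPM in the NGT mice against 84.7, 24.2 and 26.4 CPM in the T1D mice, where NGT mouse 1 lay above T1D mouse 2 and the groups overlapped.

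H2-T23, the Qa-1 chain read by NK cell receptors, was at 26.8, 11.4 and 11.9 CPM in the NGT mice, at 85.6, 17.9 and 21.2 CPM in the T1D mice and at 16.99, 15.7 and 45.2 CPM in the Lira mice. H2-M3, which presents formylated peptides, was at 2.86, 1.24 and 1.11 CPM in the NGT mice, at 9.13, 1.90 and 2.87 CPM in the T1D mice and at 1.36, 1.09 and 3.04 CPM in the Lira mice. H2-Q4 was at 52.1, 29.5 and 26.1 CPM in the NGT mice, at 152, 42.8 and 38.4 CPM in the T1D mice and at 33.0, 35.4 and 55.4 CPM in the Lira mice. All 3 had the same high library, T1D mouse 1, and overlapping groups. H2-T24 differed from them in order, with 10.7, 4.95 and 6.10 CPM in the NGT mice, 12.2, 6.94 and 8.54 CPM in the T1D mice and 7.85, 7.94 and 25.4 CPM in the Lira mice. Its level in Lira mouse 3 was 3.21 times the mean of the other 2 Lira mice. H2-T-ps was likewise highest in Lira mouse 3, at 5.45 CPM, followed by T1D mouse 1 at 4.46 CPM.

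The Qa-2 group was uncertain gene by gene. H2-Q7 was at 10.34, 2.55 and 2.61 CPM in the NGT mice, at 35.9, 7.73 and 5.002 CPM in the T1D mice and at 2.14, 6.78 and 10.45 CPM in the Lira mice. H2-Q8 was listed at 0 in 3 libraries (T1D mouse 2, Lira mouse 1 and Lira mouse 2) beside 9.95 CPM in T1D mouse 1, and H2-Q6 at 0 in 2 libraries. H2-Q6 shared 24.5% and H2-Q7 20.2% of their 50-base transcript windows with other members, most with H2-Q7 and H2-Q10, respectively, and such zeros occurred beside counts in their near copies. H2-Q8 and H2-Q9 were not among the transcripts compared, so windows shared with them were not counted. Summed over H2-Q6 to H2-Q9, which leaves out H2-Q10, the level was 20.1, 9.51 and 5.94 CPM in the NGT mice, 87.1, 12.6 and 10.9 CPM in the T1D mice and 11.1, 13.4 and 24.1 CPM in the Lira mice. The sum showed the same high library as the classical chains, with overlapping groups.

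The peptide transporter and loading genes differed in how far T1D mouse 1 lay above the other libraries. Tap1 (gene 21354), a subunit of the peptide transporter, was at 17.6, 5.10 and 5.78 CPM in the NGT mice, at 67.2, 7.73 and 11.8 CPM in the T1D mice and at 9.42, 6.07 and 25.9 CPM in the Lira mice. Its partner Tap2 was at 17.5, 10.596 and 10.8 CPM in the NGT mice, at 36.5, 11.7 and 16.3 CPM in the T1D mice and at 12.3, 14.95 and 24.5 CPM in the Lira mice. Tapbp (tapasin), which holds the heavy chain at the transporter, was at 47.2, 35.9 and 31.8 CPM in the NGT mice, at 159, 31.4 and 35.5 CPM in the T1D mice and at 29.98, 38.6 and 54.5 CPM in the Lira mice. For Tapbp, T1D mouse 2 lay below all NGT mice although T1D mouse 1 was 2.92 times the next highest library. Tapbpl, a tapasin relative that edits peptides, reached 17.8 CPM in T1D mouse 1 and lay between 4.04 and 7.69 CPM elsewhere.

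The general chaperones and the trimming enzyme were also highest in T1D mouse 1. Calr (calreticulin), which also folds many other glycoproteins, was at 445 CPM in T1D mouse 1 and between 184 and 277 CPM elsewhere. Pdia3, a disulfide isomerase of the same folding cycle, was at 227 CPM in T1D mouse 1 and between 66.7 and 125 CPM elsewhere. Erap1, the aminopeptidase that trims peptides in the endoplasmic reticulum, was at 47.5 CPM in T1D mouse 1 and between 25.1 and 32.1 CPM elsewhere. Relative to the median of the other 8 libraries, T1D mouse 1 was 1.58-fold for Erap1, 1.76-fold for Calr and 2.91-fold for Pdia3, and of the transporter and tapasin genes 2.68-fold for Tap2, 3.31-fold for Tapbpl, 4.46-fold for Tapbp and 7.84-fold for Tap1. Nlrc5 (gene 434341), the coactivator of class I genes, was at 5.65, 3.09 and 3.01 CPM in the NGT mice, at 29.2, 4.71 and 3.47 CPM in the T1D mice and at 3.85, 3.89 and 10.8 CPM in the Lira mice. Its pattern followed that of the heavy chains, at 3.32 to 6.16 Nlrc5 counts per 100 H2-K1 counts in the 9 mice.

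The class II genes showed a wider range and fell into separate patterns. Of the 13 tested genes, 9 were highest in T1D mouse 1, 3 (H2-DMb2, H2-Oa and H2-Ob) in Lira mouse 3 and 1 (Rfx5) in NGT mouse 1, which was the highest library for 4.11% of all tested genes. The 9 genes each exceeded every other library more than 2-fold in T1D mouse 1. Class II genes took up 0.394% of the counts in T1D mouse 1 and 0.00673% to 0.0496% in the other libraries. Over the class II genes the level in T1D mouse 1 was a median of 12.1 times the median of the other 8 libraries, and that in Lira mouse 3 a median of 2.90 times. The 3 genes that were highest in Lira mouse 3 each exceeded every other library more than 2-fold, as 3.16% of all tested genes did, and 4 times the median of the others, as 6.38% did.

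H2-Aa (gene 14960), the I-A α chain, was at 30.1, 7.97 and 17.5 CPM in the NGT mice, at 521, 39.8 and 18.5 CPM in the T1D mice and at 21.3, 21.1 and 59.6 CPM in the Lira mice. H2-Ab1 (gene 14961), the I-A β chain, was at 30.7, 8.97 and 14.2 CPM in the NGT mice, at 531, 33.1 and 19.9 CPM in the T1D mice and at 17.8, 23.2 and 56.1 CPM in the Lira mice. H2-Eb1 (gene 14969), the I-E β chain, was at 14.0, 5.03 and 9.26 CPM in the NGT mice, at 286, 18.8 and 9.47 CPM in the T1D mice and at 11.3, 14.6 and 29.2 CPM in the Lira mice. In all 3 chains the T1D mice ranged from within the NGT values to the highest of the 9, and T1D mouse 3 lay below NGT mouse 1. H2-Ea-ps, the I-E α locus that is not functional in this strain, was at 0 in 7 libraries and at no more than 0.0714 CPM in the other 2. H2-Eb1 was therefore counted with almost no transcript of its partner chain. The chains kept nearly fixed proportions, with 0.814 to 1.13 H2-Ab1 counts and 0.466 to 0.694 H2-Eb1 counts per H2-Aa count.

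Cd74 (gene 16149), the invariant chain that fills the class II groove until peptide loading, was at 81.0, 25.7 and 39.8 CPM in the NGT mice, at 1133, 88.1 and 46.9 CPM in the T1D mice and at 60.8, 60.1 and 158 CPM in the Lira mice. It followed the chains closely, at 2.18 to 3.22 counts per H2-Aa count. Ctss (gene 13040), the cysteine protease cathepsin S that degrades the invariant chain, was at 19.9, 2.32 and 5.86 CPM in the NGT mice, at 494, 20.7 and 11.6 CPM in the T1D mice and at 12.8, 6.78 and 35.4 CPM in the Lira mice. T1D mouse 1 was 13.9 times the next highest library for Ctss, against 9.79 times for H2-Eb1, 9.48 times for H2-Ab1, 8.73 times for H2-Aa and 7.17 times for Cd74. Ifi30, a lysosomal thiol reductase, was at 16.9, 7.12 and 11.1 CPM in the NGT mice, at 61.4, 10.7 and 12.6 CPM in the T1D mice and at 12.9, 9.501 and 28.3 CPM in the Lira mice.

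The peptide exchange factors divided between the high libraries. H2-DMa, a chain of the H2-DM exchanger, was at 8.88, 3.02 and 2.77 CPM in the NGT mice, at 52.6, 6.15 and 4.87 CPM in the T1D mice and at 3.85, 3.35 and 13.9 CPM in the Lira mice. H2-DMb1, its β chain, was at 6.85, 1.62 and 2.85 CPM in the NGT mice, at 50.1, 4.32 and 5.27 CPM in the T1D mice and at 3.71, 1.95 and 13.5 CPM in the Lira mice. Both were thus highest in T1D mouse 1. H2-DMb2, the second β chain gene, was at 2.09, 0.309 and 0.237 CPM in the NGT mice, at 1.52, 1.37 and 0.867 CPM in the T1D mice and at 1.57, 0.935 and 6.31 CPM in the Lira mice. H2-Ob, a chain of H2-O, the inhibitor of H2-DM that is known from B cells, was at 6.85, 0.309 and 2.53 CPM in the NGT mice, at 4.24, 3.60 and 2.93 CPM in the T1D mice and at 2.71, 0.545 and 17.5 CPM in the Lira mice. Both were highest in Lira mouse 3, and T1D mouse 1 did not exceed NGT mouse 1 for either. H2-Oa, the partner chain, was at 1.27, 0 and 0.237 CPM in the NGT mice, at 0.870, 0.262 and 0.734 CPM in the T1D mice and at 0.428, 0.156 and 3.39 CPM in the Lira mice. Several of these values were near the floor of 3 counts, which corresponds to 0.163 to 0.237 CPM and covers counting error only.

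**Figure D2:**
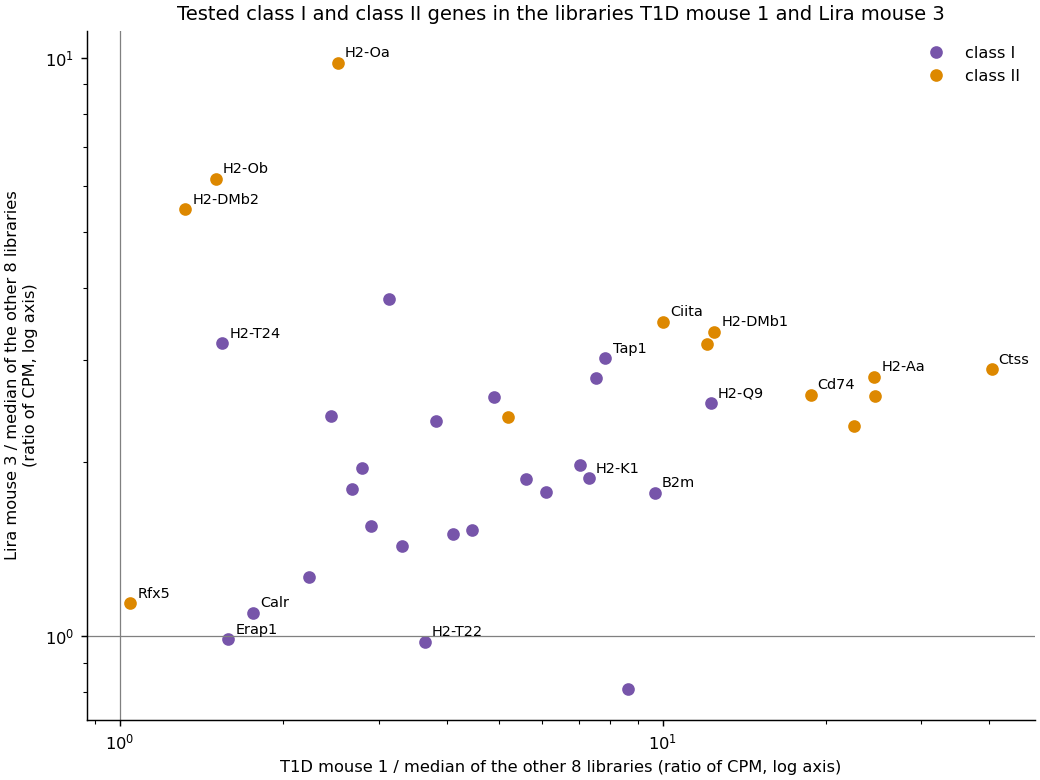
Ratio of the CPM level in T1D mouse 1 (horizontal, log axis) and in Lira mouse 3 (vertical, log axis) to the median of the other 8 libraries for each tested class I (purple) and class II (orange) gene; grey lines mark a ratio of 1. Ctss (40.4) and H2-Aa (24.5) lie far to the right, whereas H2-Oa (9.81), H2-Ob (6.18) and H2-DMb2 (5.47) lie at the top.

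Expressed as ratios within a library, 0.815 H2-Ob counts were found per 100 H2-Aa counts in T1D mouse 1, compared with 2.58 to 29.3 in the other 8 libraries. H2-DMb2 made up 3.07 counts per 100 H2-DMb1 counts in T1D mouse 1 and 7.08 to 46.8 in the other 8 libraries. These β chain genes shared about the same part of their transcripts, 22.7% of the windows of H2-DMb1 and 21.2% of those of H2-DMb2, and part of the reads could have been assigned to either gene. Their summed level was 51.6 CPM in T1D mouse 1 and 19.8 CPM in Lira mouse 3.

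The promoter windows of these genes are shown because the genes differ in the library where they were highest: H2-Aa, H2-Eb1 and H2-DMb1 in T1D mouse 1, H2-DMb2 and H2-Ob in Lira mouse 3. They lie at chr17:34287824-34288073 (reverse strand), chr17:34305617-34305866 (forward strand), chr17:34152941-34153190 (forward strand), chr17:34144999-34145248 (forward strand) and chr17:34238655-34238904 (forward strand) of GRCm38.p6 (RefSeq). Capitals mark the motifs named for class I, TTCNNNGAA (the gamma-activated site) and ATGATGC, which resembles the end of the X box of class II promoters.
H2-Aa: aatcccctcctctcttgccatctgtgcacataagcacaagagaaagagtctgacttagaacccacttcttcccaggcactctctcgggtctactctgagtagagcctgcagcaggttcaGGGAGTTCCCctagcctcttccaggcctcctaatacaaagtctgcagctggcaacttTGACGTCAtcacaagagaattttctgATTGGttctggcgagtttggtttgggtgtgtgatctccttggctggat
H2-Eb1: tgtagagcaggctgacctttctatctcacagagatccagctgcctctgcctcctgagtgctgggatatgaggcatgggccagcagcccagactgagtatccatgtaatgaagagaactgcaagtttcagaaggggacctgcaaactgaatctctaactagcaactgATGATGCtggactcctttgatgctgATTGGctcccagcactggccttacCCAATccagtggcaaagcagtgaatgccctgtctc
H2-DMb1: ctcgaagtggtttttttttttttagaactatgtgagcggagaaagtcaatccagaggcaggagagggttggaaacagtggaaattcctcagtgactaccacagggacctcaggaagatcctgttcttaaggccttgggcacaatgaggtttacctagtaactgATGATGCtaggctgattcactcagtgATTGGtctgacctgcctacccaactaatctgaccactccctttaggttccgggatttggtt
H2-DMb2: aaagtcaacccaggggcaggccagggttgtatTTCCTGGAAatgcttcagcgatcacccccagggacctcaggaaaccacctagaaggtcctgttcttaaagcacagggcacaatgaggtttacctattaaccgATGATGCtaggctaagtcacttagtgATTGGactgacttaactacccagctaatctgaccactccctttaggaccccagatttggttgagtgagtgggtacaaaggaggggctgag
H2-Ob: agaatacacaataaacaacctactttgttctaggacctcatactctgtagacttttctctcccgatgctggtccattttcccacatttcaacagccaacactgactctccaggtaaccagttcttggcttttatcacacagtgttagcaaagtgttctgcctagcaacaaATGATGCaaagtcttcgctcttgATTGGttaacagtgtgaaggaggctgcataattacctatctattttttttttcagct
ATGATGC was chosen after these windows had been read. It was found in 4 class II genes (H2-DMb1, H2-DMb2, H2-Eb1 and H2-Ob), in 2 class I genes (H2-T-ps and H2-T23) and in 2.46% of all 32817 windows. It began at -84 in H2-Eb1, -87 in H2-DMb1, -116 in H2-DMb2 and -80 in H2-Ob, followed by the Y box core at -59, -61, -90 and -57. The genes with this pair of motifs therefore included members of both expression patterns. In H2-Aa the Y box core began at -48, behind an overlapping TGACG match on each strand at -74 and -71. The Y box core was found in 9 of the 11 class II genes with a sequence, the NF-κB site in 3, TGACG in 2, the interferon-stimulated element in 1 (Ctss) and TTCNNNGAA in 1 (H2-DMb2), the last in 8.29% of all windows.

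Of the class II regulators, Ciita was weakly expressed, with a median FPKM over the 9 libraries below that of Rfx5 (2.79). Ciita (gene 12265), the class II transactivator, was at 2.73, 1.01 and 1.11 CPM in the NGT mice, at 14.1, 1.96 and 1.07 CPM in the T1D mice and at 1.71, 0.701 and 4.94 CPM in the Lira mice. On the FPKM scale its median over the 9 libraries was 0.250, against 45.2 for Cd74 and 18.6 for H2-Aa. Ciita was highest where the chains were highest, but T1D mouse 3 lay below all but 1 of the NGT mice. Rfx5, a subunit of the X box binding complex, varied between 9.21 and 15.1 CPM over the 9 libraries and was 1.04-fold in T1D mouse 1 relative to the median of the others. H2-Ke6, the dehydrogenase, likewise varied only from 24.6 to 35.5 CPM.

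Compared with the NGT group, the T1D group had no differentially expressed class I or class II gene. With edgeR's quasi-likelihood test, a Benjamini-Hochberg adjusted p under 0.05 and a fold change over 2, the number was 0 of 24 and 0 of 13, as it was for all tested genes (0.0%), and the lowest adjusted p of a member was 0.977. DESeq2 gave an adjusted p to 1235 genes, of which it called 0.0%, and to 2 members, Cd74 (0.183) and Calr (0.836), so the other 35 members had no DESeq2 call. Without its outlier and independent filters it gave one to all genes and called 0 of 37 members, with a lowest adjusted p of 0.255, against 0.00716% of all genes. At an unadjusted p under 0.05, 1 class I and 5 class II genes were higher and 0 were lower, against 2.36% and 1.60% of all tested genes. The median log2 fold change was 1.08 over the class I genes, with 23 of 24 positive, and 2.11 over the class II genes, with 13 of 13 positive. For all tested genes it was 0.02, with 52.1% positive.

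Within class I the log2 fold change in T1D against NGT was 1.28 (SE 0.47) for H2-T22, 1.71 (SE 0.78) for H2-K1, 1.82 (SE 0.88) for B2m, 1.67 (SE 0.83) for Nlrc5 and 1.60 (SE 0.92) for Tap1. Within class II it was 4.22 (SE 1.53) for Ctss, 3.47 (SE 1.20) for H2-Eb1, 3.43 (SE 1.23) for H2-Ab1, 3.38 (SE 1.21) for H2-Aa and 3.11 (SE 1.15) for Cd74. The standard errors span over 0.3 of each of these class II estimates. H2-Ob was at 0.15 (SE 1.18) and Rfx5 at 0.09 (SE 0.23). Group means show the same spread, with Cd74 at 48.8 ± 28.8 CPM in the NGT group and 423 ± 616 CPM in the T1D group (SD, n = 3). The B2m means were 164 ± 77.7 and 580 ± 761 CPM (SD, n = 3). In both cases the SD of the T1D group exceeded its mean.

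These values rested on T1D mouse 1. Without it, the median log2 fold change was 0.07 over the class I genes (14 of 23 positive) and 0.32 over the class II genes (10 of 13 positive), while 48.6% of all genes were positive, and 0 members reached an unadjusted p under 0.05 in edgeR, against 1.61% of all genes higher and 1.39% lower. The estimate without this mouse was -0.22 for B2m, 0.16 for H2-K1, 0.03 for Tap1, 0.40 for H2-T22, 0.46 for Cd74, 0.65 for H2-Aa, 0.78 for Ctss and -0.10 for Ciita.

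**Figure D3:**
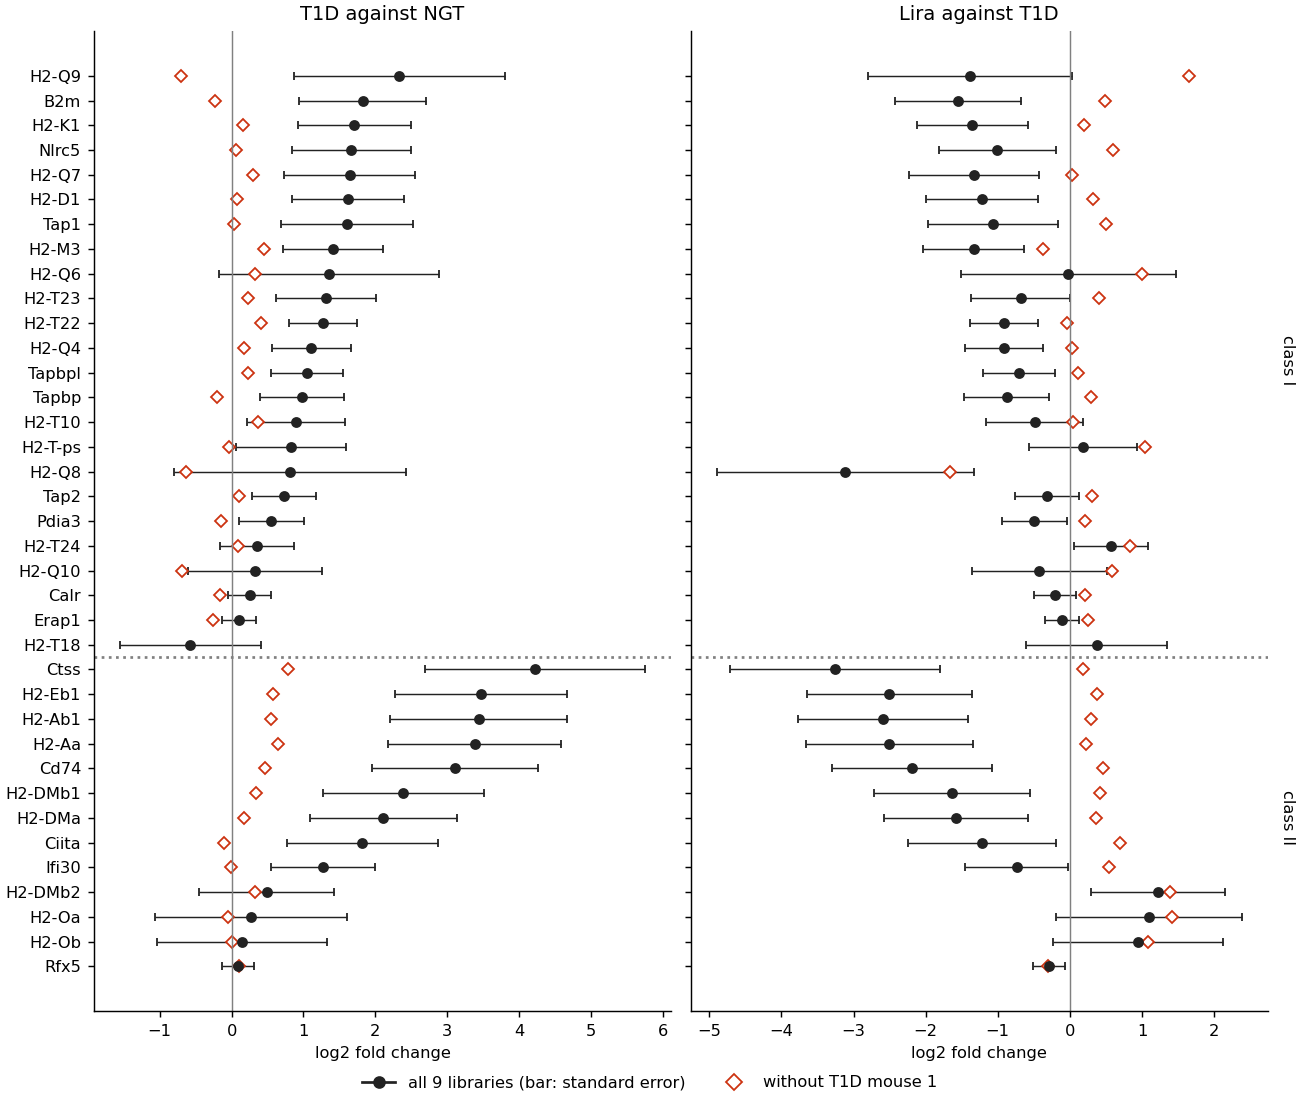
log2 fold change (horizontal) of each tested class I and class II gene (vertical) in T1D against NGT and in Lira against T1D; black points with standard error bars use all 9 libraries and open red diamonds leave out T1D mouse 1, where H2-T18 was no longer tested. The class II chains lie near 3.4 in T1D against NGT with all libraries and below 0.7 without T1D mouse 1. In Lira against T1D most genes change sign when T1D mouse 1 is left out.

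Libraries with the same mouse number in the NGT and T1D groups deviated together from their group means, so their numbers were treated as pairs. No label says what a number shares, and this pairing was read from the same expression data that it was then used on. The block p-values and pair counts below therefore describe these libraries only. In a fit of the NGT and T1D groups alone that took the pair as a block (replicate block), 17 members (10 class I, 7 class II) had an unadjusted p under 0.05, all higher in T1D, against 8.25% of all genes higher and 5.92% lower, and the lowest adjusted p of edgeR was 0.229. With the block in the fit of all 9 libraries, 6 members reached this unadjusted p in edgeR, against 5.39% of all genes in either direction. The main fit without a block also gave 6. Within the pairs, 15 of 24 class I genes and 8 of 13 class II genes were higher in the T1D mouse in 3 of 3 pairs, and 0 were lower in 3 of 3. Of all tested genes, 19.2% were higher in 3 of 3 pairs and 19.0% lower. The median T1D to NGT ratio of the class I genes was 3.17, 1.25 and 1.49 in pairs 1, 2 and 3, and that of the class II genes 5.92, 3.56 and 1.22. The corresponding ratios over all tested genes were 0.979, 1.00 and 1.03. The class medians lay above 1 in each pair and were smallest in pair 2 for class I and in pair 3 for class II. H2-K1 was 4.71-, 1.49- and 1.73-fold, H2-Aa 17.3-, 4.997- and 1.06-fold and Ctss 24.9-, 8.92- and 1.98-fold in the 3 pairs.

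**Figure D4:**
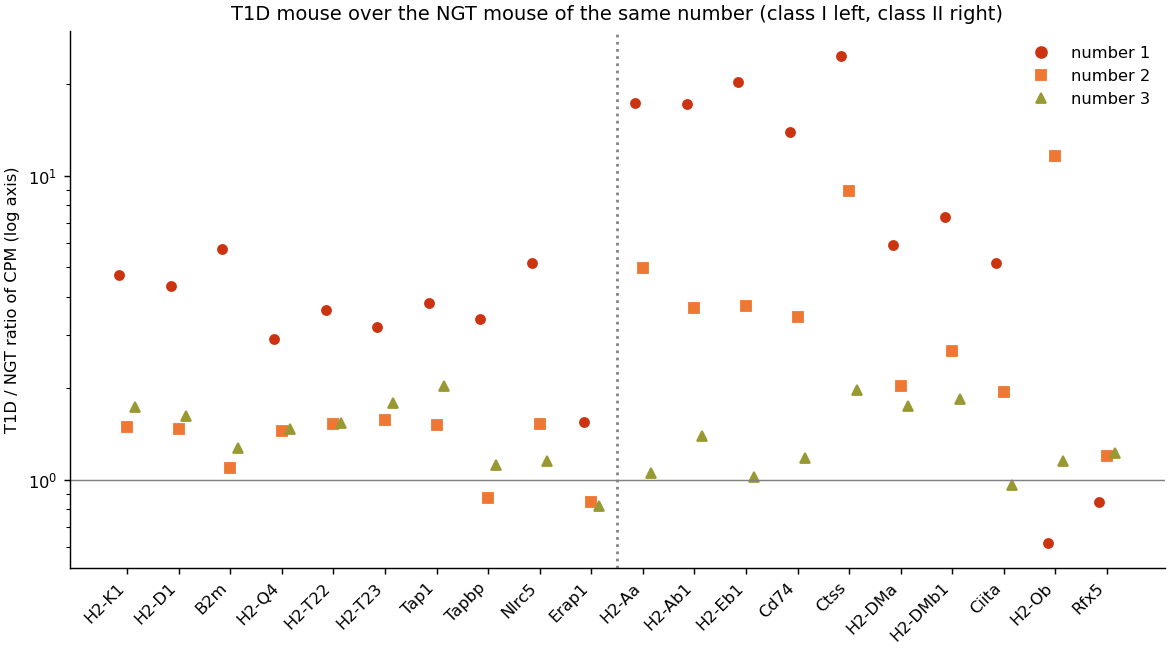
Ratio of the CPM level in each T1D mouse to that in the NGT mouse of the same number (log axis) for class I genes (left of the dotted line) and class II genes (right); colour and shape give the number and the grey line marks a ratio of 1. Ratios of number 1 are the highest for each plotted gene but H2-Ob and Rfx5, for which they are the lowest (0.619 and 0.849), and reach 24.9 for the protease Ctss. Of the tested genes not plotted, number 1 had the lowest ratio for H2-T10, H2-T24, H2-DMb2 and H2-Oa.

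Liraglutide-treated mice were compared with the same T1D mice, so both comparisons share the T1D libraries. The number of differentially expressed genes among the members was 0 in edgeR, where it was 0.0% of all genes, and 0 of the 31 members with an adjusted p in DESeq2, against 0.00719% of the genes. Without the filters of DESeq2 it was 0 of 37, against 0.00716%. At an unadjusted p under 0.05 edgeR had 0 members in either direction, against 1.55% of all tested genes higher and 1.78% lower. The median log2 fold change in Lira against T1D was -0.79 over the class I genes (21 of 24 negative) and -1.58 over the class II genes (10 of 13 negative), and 0.04 over all genes, of which 55.3% were positive. No member separated the groups, against 3.74% of all tested genes with all Lira mice above the T1D mice and 3.40% with all below. The 3 positive class II genes were H2-DMb2 at 1.23 (SE 0.93), H2-Oa at 1.09 (SE 1.29) and H2-Ob at 0.95 (SE 1.18). Ctss was at -3.25 (SE 1.46), H2-Ab1 at -2.59 (SE 1.18), Cd74 at -2.18 (SE 1.11), B2m at -1.55 (SE 0.87) and H2-K1 at -1.35 (SE 0.77).

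Leaving out T1D mouse 1 turned the direction of most members in Lira against T1D. The medians became 0.30 over the class I genes, with 20 of 23 positive, and 0.42 over the class II genes, with 12 of 13 positive, beside 0.07 over all genes, of which 58.7% were positive. Cd74 went to 0.46, B2m to 0.49 and H2-K1 to 0.19. Leaving out Lira mouse 3 as well gave medians of -0.05 and -0.41. The direction of the liraglutide comparison was therefore set by which of these mice were included.

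Between the Lira and NGT groups, 0 members were differentially expressed in edgeR and, of the 31 with an adjusted p, in DESeq2 (0.0% of all genes in both), and 0 had an unadjusted p under 0.05 in edgeR (0.487% of all genes higher, 0.294% lower). The median log2 fold change was 0.35 over class I (20 of 24 positive) and 0.88 over class II (12 of 13 positive), with 55.5% of all genes positive. Without Lira mouse 3 these medians were -0.03 and -0.07. No tested member separated these groups, against 2.49% of all tested genes upwards and 1.78% downwards. H2-Q1, too low to be tested, was at 0.158 to 0.317 CPM in the NGT mice and at 0 to 0.0779 CPM in the Lira mice. The largest estimates of class II were those of H2-DMb2 (1.72, SE 0.95), H2-Oa (1.37, SE 1.31) and H2-Ob (1.09, SE 1.19), each with its highest level in Lira mouse 3.

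Markers of antigen-presenting cells moved with these libraries. The 10 macrophage genes summed to 359, 58.2 and 117 CPM in the NGT mice, to 2122, 138 and 238 CPM in the T1D mice and to 176, 143 and 572 CPM in the Lira mice, and 10 of 10 were highest in T1D mouse 1. Lyz2 and C1qa, the most abundant of them by mean over the 9 libraries, were at 1141 and 229 CPM in that library. The 11 B cell genes summed to 122, 18.5 and 37.8 CPM in the NGT mice, to 85.5, 55.9 and 53.2 CPM in the T1D mice and to 69.7, 35.3 and 271 CPM in the Lira mice, and 10 of 11 were highest in Lira mouse 3. Cd79a, a chain of the B cell receptor complex, was at 86.8 CPM there, whereas Ebf1, which is not restricted to B cells, was highest in T1D mouse 1 at 52.9 CPM. The 10 dendritic cell genes summed to 70.8 CPM in T1D mouse 1, 46.7 CPM in Lira mouse 3 and 14.5 to 34.9 CPM elsewhere. Of these, Bst2 was at 41.0 CPM in T1D mouse 1, and without it the sums were 29.7 CPM there and 33.6 CPM in Lira mouse 3. Of the 9 tested dendritic cell genes, 4 were highest in T1D mouse 1 and 4, among them Flt3 and Clec9a, in Lira mouse 3. Zbtb46, a transcription factor of conventional dendritic cells, lay between 6.42 and 9.56 CPM in all 9 libraries. Thus the library highest for most class II genes was also highest for macrophage genes, and the library highest for H2-Ob, H2-Oa and H2-DMb2 was also highest for B cell genes. T1D mouse 1 was also highest for the summed osteoblast and osteocyte genes, at 5573 CPM, and for the osteoclast genes, at 375 CPM beside 349 CPM in Lira mouse 3. It was lowest for the summed skeletal muscle genes, at 78978 CPM, and Lira mouse 3 was highest for the summed neutrophil (5001 CPM), erythroid (13973 CPM) and T and NK cell genes (33.2 CPM). The part of cell composition in the class I and class II levels was not tested.

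**Figure D5:**
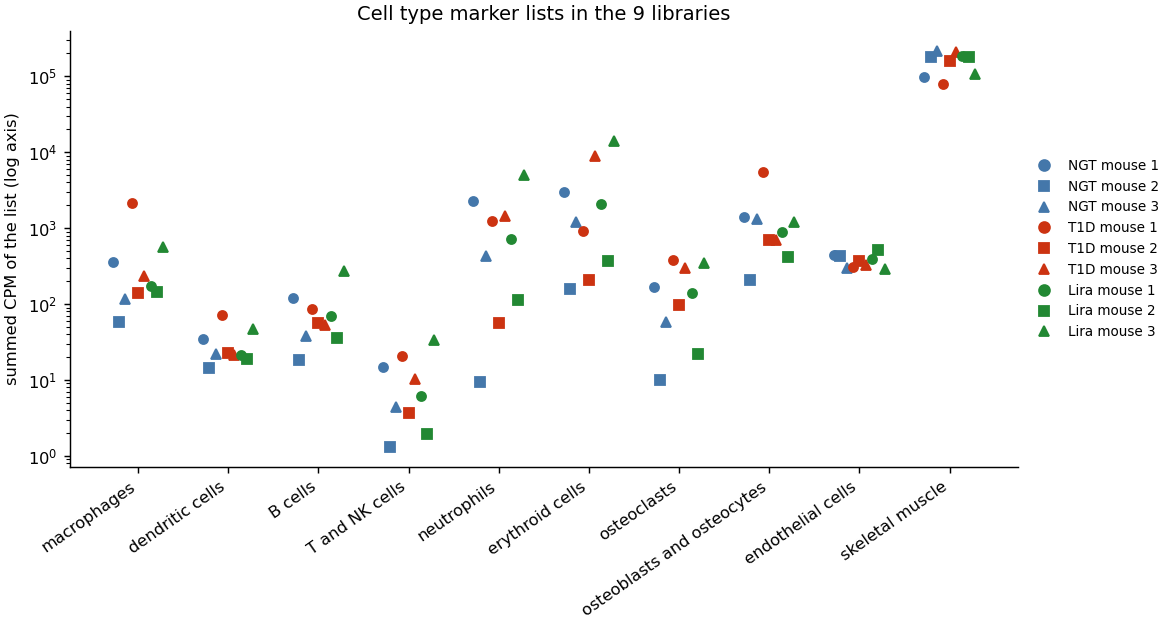
Summed CPM level of the cell type marker lists (log axis) in each of the 9 libraries; colour gives the group and shape the mouse number. T1D mouse 1 is highest for macrophage genes (2122 CPM) and Lira mouse 3 for B cell genes (271 CPM), and skeletal muscle genes take up the largest share of every library.

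Across the 9 mice, 10 relations between genes were computed on log2(CPM + 1), over which p-values were adjusted, and 5 of them are given. Cd74 and H2-Aa had a Pearson's r of 0.996 (exact permutation p = 2.76e-06, adjusted 2.76e-05) and a Spearman's rho of 1.00 (exact p = 5.51e-06, adjusted 5.51e-05). Without T1D mouse 1 and Lira mouse 3, the mice farthest from the median, r was 0.972. H2-K1 and Nlrc5 had an r of 0.975 (exact permutation p = 8.27e-05, adjusted 0.000276), a rho of 0.900 (exact p = 0.00203, adjusted 0.00676) and an r of 0.881 without these mice. Cd74 and Ciita had an r of 0.953 (exact permutation p = 0.000659, adjusted 0.000941) and a rho of 0.867 (exact p = 0.00451, adjusted 0.0113), and r was 0.653 without them. Cd74 and the macrophage gene C1qa had an r of 0.966 (exact permutation p = 0.000422, adjusted 0.000703) and a rho of 0.800 (exact p = 0.0138, adjusted 0.0198), and r was 0.820 without them. Cd74 and the B cell gene Cd79a had an r of 0.436 (exact permutation p = 0.243, adjusted 0.243) and a rho of 0.700 (exact p = 0.0433, adjusted 0.0541), and r was 0.746 without them. Without T1D mouse 1 alone, r with Cd74 was 0.871 for Cd79a and 0.831 for C1qa, so their order changed with the libraries that were left out.

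Other genes of antigen presentation, from a list of 50 of which 47 were tested, were read beside the members. In T1D against NGT, 1 had an unadjusted p under 0.05 upwards and 1 downwards, which is near the 2.36% and 1.60% of all tested genes, and edgeR's adjusted p left 0. Their median log2 fold change was 0.35 in T1D against NGT, -0.15 in Lira against T1D and 0.20 in Lira against NGT. Of these 47 genes, 22 were highest in T1D mouse 1, against 20.7% of all tested genes. Without T1D mouse 1 the median was 0.03 in T1D against NGT and 0.15 in Lira against T1D, so the latter turned in sign.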

How the data were processed

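RNA of 9 tibiae, 1 library each, was enriched with oligo(dT) and sequenced. Clean reads were aligned by the authors to the mouse genome (mm9 in the submitters' processing notes) and expected counts and FPKM values per gene were deposited. The aligner, counter and annotation are not given in the sources used here. Of the expected counts, 30.2% were not whole numbers and were rounded for the tests. All sample columns matched a label (0 left over), and the authors' group means were not used. Library totals of 13086373 to 16528394 set the counting precision.

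Genes that reached 10 counts in 3 or more libraries were tested in one fit of the 9 libraries with TMM normalisation and edgeR's quasi-likelihood test (edgeR 4.0.16, R 4.3.3), with Benjamini-Hochberg adjustment over 13960 genes. A fold change over 2 and an adjusted p under 0.05 defined a differentially expressed gene. The scripts were tested on simulated data. CPM values use TMM-scaled library sizes. Single genes were compared with exact permutation tests, and relations were computed on log2(CPM + 1). Alternatives were DESeq2 1.42.0, limma 3.58.1 on log2(FPKM + 1) of the deposited FPKM, other scalings and filters, the replicate block, and leaving out each mouse. DESeq2 without its outlier and independent filters, the fit without both T1D mouse 1 and Lira mouse 3, the ratios within mouse numbers and those to the other 8 libraries were added after seeing the data.

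Same-numbered NGT and T1D libraries correlated in their deviations from the group means (r = 0.583, 0.647 and 0.283), which was taken as pairing from the data. T1D and Lira libraries (-0.244, 0.615 and 0.271) and NGT and Lira libraries (-0.173, 0.727 and 0.0125) did not qualify. Libraries of different numbers ranged from -0.697 to 0.0668 between NGT and T1D, but NGT mouse 1 and Lira mouse 3 reached 0.780. A high r thus occurred without a shared number. Genes given mouse by mouse were the main chains, loading genes and regulators of each class, plus the 3 tested members of each class with the lowest unadjusted p in each comparison. Tapbpl, Calr, Pdia3, Erap1, Rfx5 and H2-Ke6 were described by range, and H2-T-ps and H2-Q8 by selected libraries. The members and lists were chosen with earlier results of these data known. Shared transcript sequence was counted in 50-base windows of GENCODE transcripts, among which H2-Q8, H2-Q9 and H2-T18 were not compared.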

Additional observations from a re-analysis of the deposited data

How the results depend on the processing

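With edgeR, DESeq2 and limma, 0 members with an adjusted p were differentially expressed under each of the 21 alternatives, although DESeq2 gave one to only 2 members in T1D against NGT and to 31 in the other comparisons, and the lowest adjusted p of a member ranged from 0.183 to 1.00 in T1D against NGT, from 0.745 to 1.00 in Lira against T1D and from 0.882 to 1.00 in Lira against NGT. The number of members with an unadjusted p under 0.05 in T1D against NGT, 6 in the main analysis (3.95% of all genes in either direction), was 17 with the replicate block in the 2 groups compared (14.2%), 13 with DESeq2 without its filters (5.28%), 0 with limma (3.12%) and 0 without T1D mouse 1 and Lira mouse 3 (3.84%). For T1D against NGT it was 6 with the replicate block in all 9 libraries (5.39%). In Lira against T1D, 0 in the main analysis (3.33%), it was 2 with DESeq2 (4.46%), 5 with DESeq2 without its filters (4.68%), 5 without a low-count filter (2.97%) and 1 without both mice (3.66%), and in Lira against NGT it was 1 without both mice (1.57%). Without both mice the class I and class II medians in T1D against NGT were 0.041 and 0.29, and the class II median in Lira against NGT was -0.035. The following log2 fold changes turned in sign without both mice. In T1D against NGT they were -0.25 for B2m, -0.0026 for Tap1, -0.22 for Tapbp, -0.035 for H2-Ob, -0.13 for Ciita, -0.040 for Ifi30, -0.058 for H2-T-ps and -0.66 for H2-Q8. In Lira against T1D they were 0.21 for B2m, 0.032 for Tapbp, -0.99 for H2-Ob and -0.038 for H2-T-ps. The replicate block turned H2-Q8 in T1D against NGT to -0.11 and H2-Ob in Lira against T1D to -0.064, or to -0.21 with only the groups compared, and it changed no other direction of a named gene in these comparisons and no call. Leaving out each mouse in turn, the count at an unadjusted p under 0.05 ranged from 0 to 17 in T1D against NGT, from 0 to 10 in Lira against T1D and from 0 to 1 in Lira against NGT. In T1D against NGT it was 17 without T1D mouse 2 (5.19% of all genes), 14 without T1D mouse 3 (4.996%), 13 without NGT mouse 1 (7.32%) and 0 without T1D mouse 1 (3.002%), NGT mouse 2 (1.61%) or NGT mouse 3 (1.81%). In Lira against T1D it was 10 without T1D mouse 2 (4.04%), 7 without T1D mouse 3 (5.10%) and 3 without Lira mouse 3 (5.35%), and in Lira against NGT 1 without Lira mouse 3 (0.952%) or NGT mouse 1 (2.22%). The class I medians ranged from 0.074 to 1.71, from -1.14 to 0.30 and from -0.033 to 0.88, and the class II medians from 0.32 to 2.88, from -2.56 to 0.42 and from -0.065 to 1.48. In T1D against NGT the genes that turned in sign ranged from -0.22 to 2.29 (B2m), -0.20 to 1.35 (Tapbp), -0.035 to 1.24 (H2-T-ps), -0.64 to 1.40 (H2-Q8), -0.10 to 2.44 (Ciita), -0.0100 to 1.66 (Ifi30), -0.29 to 2.33 (H2-Oa) and -0.39 to 1.34 (H2-Ob). In Lira against T1D the class I genes that turned ranged from -1.79 to 0.19 (H2-K1), -1.65 to 0.33 (H2-D1), -2.03 to 0.49 (B2m), -1.35 to 0.41 (H2-T23), -0.23 to 0.85 (H2-T24), -0.90 to 1.04 (H2-T-ps), -1.24 to 0.026 (H2-Q4), -1.87 to 0.024 (H2-Q7), -1.91 to 0.50 (Tap1), -0.67 to 0.30 (Tap2), -1.26 to 0.30 (Tapbp), -1.02 to 0.11 (Tapbpl) and -1.69 to 0.60 (Nlrc5). The class II genes that turned ranged from -2.81 to 0.46 (Cd74), -3.19 to 0.23 (H2-Aa), -3.26 to 0.29 (H2-Ab1), -3.05 to 0.38 (H2-Eb1), -2.56 to 0.36 (H2-DMa), -2.82 to 0.42 (H2-DMb1), -0.0068 to 1.65 (H2-DMb2), -1.07 to 1.61 (H2-Oa), -1.14 to 1.49 (H2-Ob), -2.24 to 0.70 (Ciita), -4.17 to 0.19 (Ctss) and -1.34 to 0.54 (Ifi30). The turns came from leaving out T1D mouse 1, Lira mouse 3, T1D mouse 2 (H2-T-ps) or NGT mouse 2 or 3 (H2-Oa and H2-Ob). Counts near 0 limit H2-Oa, H2-DMb2 and Ciita, and sequence shared between copies limits the H2-Q and H2-T genes.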

Other observations

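The members lie mostly together, 39 of 50 on chromosome 17, so the other genes of the same region were read beside them. Between H2-K1 and H2-M2 in the GRCm38 gene order, 89 further genes were tested, leaving out those of the antigen presentation list, of which 25 (28.1%, against 20.7% of all tested genes) were highest in T1D mouse 1. Their median ratio of T1D mouse 1 to the median of the other 8 libraries was 1.18, compared with 3.97 for class I and 12.1 for class II genes, and 11 of the 89 (12.4%, against 4.52% of all tested genes) exceeded 4-fold. The following genes were chosen after their values were seen. Cfb, complement factor B, was at 149 CPM in T1D mouse 1 and between 4.02 and 10.9 CPM elsewhere. C4b, a complement component of the same region, was at 180.5 CPM in T1D mouse 1 and between 5.94 and 43.9 CPM elsewhere. Aif1, a macrophage gene, was at 15.8 CPM in T1D mouse 1 and at most 2.41 CPM elsewhere.

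Of the 12 members with too few counts to be tested, H2-M2 reached 4.13 CPM in T1D mouse 1 and at most 0.155 CPM, which is below the floor of 3 counts, in the other 8 libraries. H2-Eb2, a further class II β chain gene, was highest in Lira mouse 3, at 2.07 CPM, followed by NGT mouse 1 at 1.14 CPM, as were H2-Ob, H2-Oa and H2-DMb2.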
